A study of Mus musculus with 19 samples.

Results

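Fibroblast growth factor (FGF) signalling genes were followed across 7 groups of mouse embryonic kidney cells profiled by RNA sequencing. The 34 genes were chosen by symbol. They are 8 secreted FGF ligands, 3 intracellular FGF homologous factors, 5 receptors, 6 Sprouty and Spred inhibitors, 3 ETS transcription factors, 4 genes that hold the MAP kinase phosphatases and Il17rd, and 5 adaptors and cofactors. In GENCODE M21 (GRCm38, the assembly mm10), the members described most closely include Fgf20 at chr8:40279166-40308331 on the minus strand, Flrt2 at chr12:95692226-95785215 on the plus strand, Etv4 at chr11:101769742-101785371 on the minus strand and Il17rd at chr14:27038941-27107286 on the plus strand. All 34 were found among the 20137 gene names of a table from embryonic day E16.5 and among the 24427 names of a table from E14.5.

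All cells came from CFW mice. At E16.5, nephrogenic zone cells (NZC, from the outer kidney where new nephrons form) without a labelled allele were stained for the nephron progenitor protein SIX2 by MARIS, a method for sequencing RNA of cells sorted on an antigen inside the cell, and gave SIX2+, SIX2- and unsorted NZC libraries (n = 3 each). Also at E16.5, GFP+ and GFP- cells were sorted from Six2TGC/+ kidneys (n = 3 each), whose transgene places GFP fused to Cre under Six2 control. At E14.5, Tdt+ and Tdt- cells were sorted from Foxd1Cre;Tdt kidneys (n = 2 each), in which a red reporter marks cells with a history of the stromal progenitor gene Foxd1, whether or not they still express it. SIX2- and GFP- cells are all other sorted cells of their source, and Tdt- cells are all sorted cells without the red reporter, nephron progenitors among them. Whether libraries are from different animals is not stated in the labels. The p-values therefore measure the spread between these libraries, and that spread may be technical.

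FGF ligands bind receptor tyrosine kinases together with heparan sulphate, and the receptors signal through the adaptor FRS2 to RAS and the MAP kinase ERK. ERK activity induces the ETS factors Etv4 and Etv5 and a set of inhibitors that act back on the pathway: Sprouty and Spred proteins on RAS and RAF, dual-specificity phosphatases on ERK itself, and Il17rd (also known as Sef) at the membrane. In the developing kidney, Fgf9 and Fgf20 are known to maintain nephron progenitors, Fgf8 is needed in the nascent nephron, Fgf7 and Fgf10 act on the ureteric bud through Fgfr2, and loss of Fgfr1 and Fgfr2 from the metanephric mesenchyme blocks kidney formation.

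Values are RPKM (reads per kilobase and depth), so they can be set side by side between genes within a table. Differences are on the log2(RPKM + 1) scale with their standard errors, from limma, and calls needed an adjusted p under 0.05 (Benjamini-Hochberg over all genes tested in that table). Estimated depth ran from 26100000 to 45500000 reads in 14 of the 15 E16.5 libraries and was 3110000 in NZC library 2, which stood apart. At E14.5 it was 30400000 and 26300000 in Tdt- and 9440000 and 8390000 in Tdt+ libraries. Six2 averaged 351 in SIX2+ against 19.6 in SIX2- cells, 335 in GFP+ against 7.45 in GFP- cells and 1.39 in Tdt+ against 107 in Tdt- cells, and Foxd1 averaged 153 in Tdt+ against 27.5 in Tdt- cells. Summed over 12 stromal markers, SIX2+ libraries reached 54.7 to 63.6 against 1236 to 1986 in SIX2- and GFP+ libraries 60.1 to 82.0 against 2402 to 3302 in GFP-, but Tdt+ (1807 to 2752) and Tdt- libraries (2463 to 3361) overlapped, so the Tdt- cells were not poor in these genes.

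In SIX2+ cells, 10 of the 34 genes were called higher than in SIX2- cells and 8 lower, with 32 tested. Across all 12798 genes tested, 24.2% were called, 8.36% higher and 15.9% lower. In GFP+ cells, 13 were called higher than in GFP- cells and 11 lower of the same 32, beside 32.9% of all genes (15.9% higher, 17% lower). In Tdt+ cells, 1 was called higher than in Tdt- cells and 9 lower of 30 tested, beside 8.44% of 12364 genes (1.22% higher, 7.21% lower). Libraries of the compared groups did not overlap for 26 of 32, 23 of 32 and 21 of 30 tested members, beside 47.3%, 53% and 54.5% of all genes tested. The median difference of the tested members was 0.31 (SIX2 sort), 0.19 (GFP sort) and -0.33 (Tdt sort), beside 0.04, 0.09 and -0.04 over all genes. Genes that pass a low-value filter through 1 group alone are bound to differ. At E14.5 Fgf1, Fgf8, Fgf10, Fgfr4 and Etv1, which make up most of the lower calls, passed through the Tdt- libraries alone. At E16.5 Fgf20 reached 1 RPKM in no depleted library, Fgf1 in no GFP- library, and Fgf2, Fgf13, Fgf18 and Fgfbp1 in no progenitor library. The untested members were Fgf7 and Fgf12 at E16.5 and Fgf7, Fgf9, Fgf12 and Fgf20 at E14.5. The count in SIX2+ cells was 11 without SIX2- library 1, beside 17.8% of all genes. That in Tdt+ cells was 6 without Tdt- library 1 and 5 without Tdt- library 2, beside 3.51% and 2.77% of all genes. The split of all calls depended on scaling: of 3144 genes called after quantile normalisation 1572 were higher in SIX2+ cells, of 3520 called after rescaling to equal sums 1318 were higher in GFP+ cells, and of 725 called after quantile normalisation 240 were higher in Tdt+ cells. Among the members that normalisation gave 3 higher and 7 lower in Tdt+ cells, and rescaling to equal sums moved the median Tdt difference of all genes from -0.04 to -0.24.

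**Figure D1:**
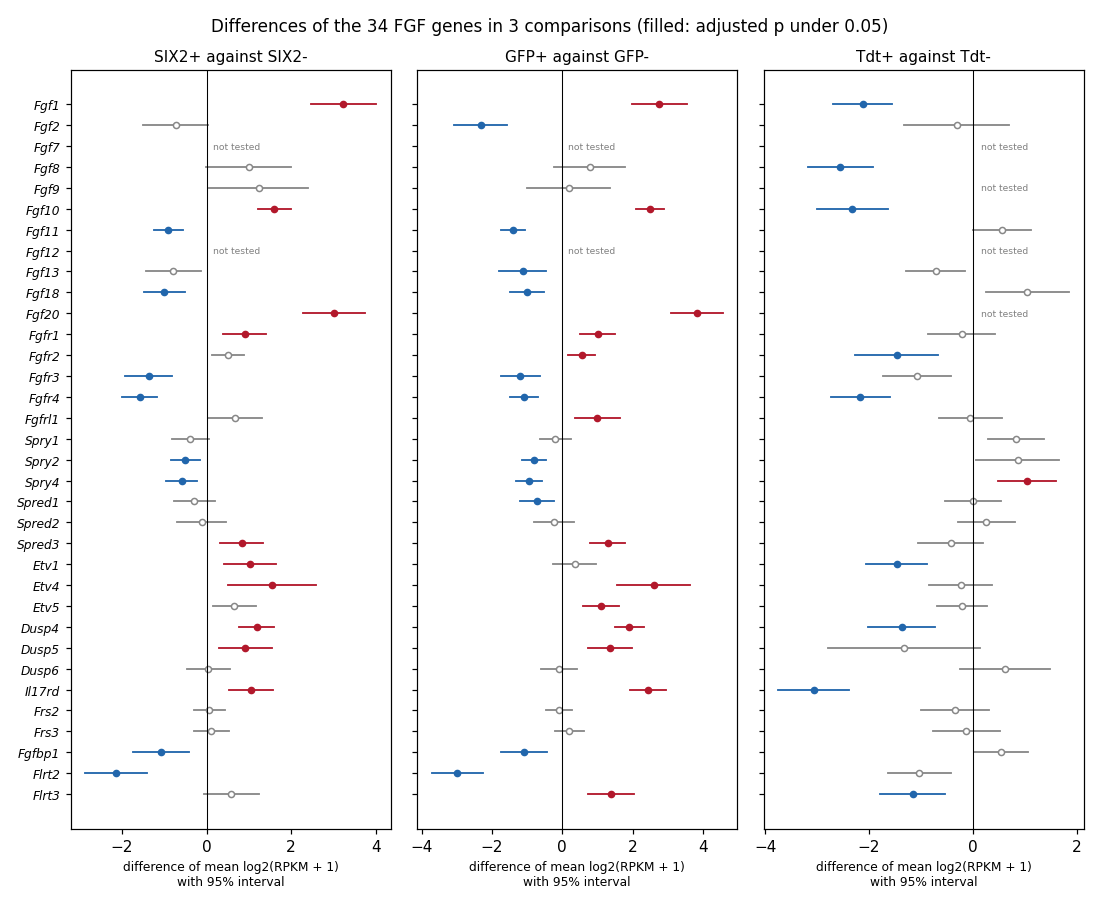
Difference in log2(RPKM + 1) of each FGF pathway gene (rows) between sorted groups, with a panel each for SIX2+ against SIX2-, GFP+ against GFP- and Tdt+ against Tdt- and bars for the 95% interval. Filled points are genes called at an adjusted p under 0.05. Fgf1, Fgf10 and Fgf20 lie far to the right in both nephron progenitor sorts, and Flrt2 far to the left.

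Among the secreted ligands, Fgf1, Fgf10 and Fgf20 were called higher in nephron progenitors of both sorts. Fgf20, a progenitor maintenance ligand, stood at 11.5, 10.1 and 8.85 RPKM in SIX2+ libraries and at 0.128, 0.250 and 0.888 in SIX2- libraries, a difference of 3.002 ± 0.34, adjusted p = 1.52e-05. In the reporter sort it stood at 13.3, 17.2 and 15.1 in GFP+ against 0.207, 0.228 and 0 in GFP- libraries (3.82 ± 0.34, adjusted p = 1.02e-06). All 6 progenitor libraries were therefore above 8 RPKM and all 6 depleted libraries below 1. Fgf1, a ligand that binds every FGF receptor, measured 16.7, 18.6 and 22.2 in SIX2+ against 0.948, 0.579 and 2.15 in SIX2- libraries (3.23 ± 0.36, adjusted p = 1.24e-05). Its values were 9.17, 8.88 and 10.3 in GFP+ against 0.553, 0.5001 and 0.566 in GFP- libraries (2.76 ± 0.36, adjusted p = 4.05e-05). Fgf10, best known as a mesenchymal ligand for the epithelial form of Fgfr2, measured 7.84, 7.48 and 4.63 in SIX2+ and 1.36, 1.44 and 1.62 in SIX2- libraries (1.60 ± 0.18, adjusted p = 1.6e-05). It reached 12.5, 13.95 and 10.5 in GFP+ against 1.03, 1.72 and 1.37 in GFP- libraries (2.49 ± 0.18, adjusted p = 1.58e-07). None of the 3 genes overlapped between progenitor and depleted libraries in either sort, and each kept its call in both sorts under every alternative run. Fgf20 passed the filter on low values through progenitor and unsorted libraries alone, so its missing overlap and kept calls are not independent support. Fgf1 reached 1 RPKM in no GFP- library, and the same caution holds for its call in that sort.

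Fgf8, which marks the nascent nephron, and Fgf9 were present in SIX2+ cells without a call against SIX2- cells. Fgf8 measured 12.1, 13.7 and 16.6 in SIX2+ and 3.87, 9.10 and 7.71 in SIX2- libraries, which did not overlap (difference 0.99 ± 0.47, 95% interval -0.01 to 2.004, adjusted p = 0.156). In the reporter sort it was low on both sides, at 2.48, 3.46 and 1.53 in GFP+ against 0.252, 1.12 and 1.94 in GFP- libraries (0.78 ± 0.47, adjusted p = 0.23). Fgf8 was called in the antibody sort with the fit limited to SIX2+ and SIX2- libraries (0.0246) and in the reporter sort in replicates 1 and 2 alone (0.0425). Fgf9 ranged from 2.31 to 3.66 in SIX2+ and from 0.448 to 0.783 in SIX2- libraries (1.23 ± 0.55, adjusted p = 0.13), and was at most 0.301 in all 6 libraries of the reporter sort. The spread that enters this test includes the unsorted libraries, where Fgf9 was 0.224, 11.5 and 1.74. Without the shallow NZC library 2 the same difference had an adjusted p of 0.00124, and with the fit limited to SIX2+ and SIX2- libraries 0.00107.

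Ligands that were lower in the progenitors were Fgf18 in both sorts and Fgf2 in the reporter sort. Both passed the filter on low values through depleted and unsorted libraries alone, so their p-values and missing overlap are not independent support. Fgf18 measured 0.553, 0.482 and 0.568 in SIX2+ against 2.41, 1.27 and 2.73 in SIX2- libraries (-0.999 ± 0.23, adjusted p = 0.00434) and 0.252, 0.178 and 0.920 in GFP+ against 1.45, 1.70 and 2.53 in GFP- libraries (-1.01 ± 0.23, adjusted p = 0.00316). Both calls ended after quantile normalisation (adjusted p = 0.136 and 0.0619). Fgf2, a broadly acting ligand, measured 0.338, 0.221 and 0 in GFP+ against 3.71, 3.75 and 8.18 in GFP- libraries (-2.32 ± 0.36, adjusted p = 0.000169). Antibody-sorted cells had 0, 0.0629 and 0 in SIX2+ and 0.490, 0.332 and 1.46 in SIX2- libraries (-0.73 ± 0.36, adjusted p = 0.168), also without overlap, and it was called with a pseudocount of 0.1 (difference -2.64, adjusted p = 0.0135). Fgf7 stayed between 0.221 and 1.09 in all 19 libraries. Markers of stroma, endothelium and leukocytes were lower in both progenitor groups, as was Fgf18, and in GFP+ cells so was Fgf2, and their part in these differences was not tested.

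**Figure D2:**
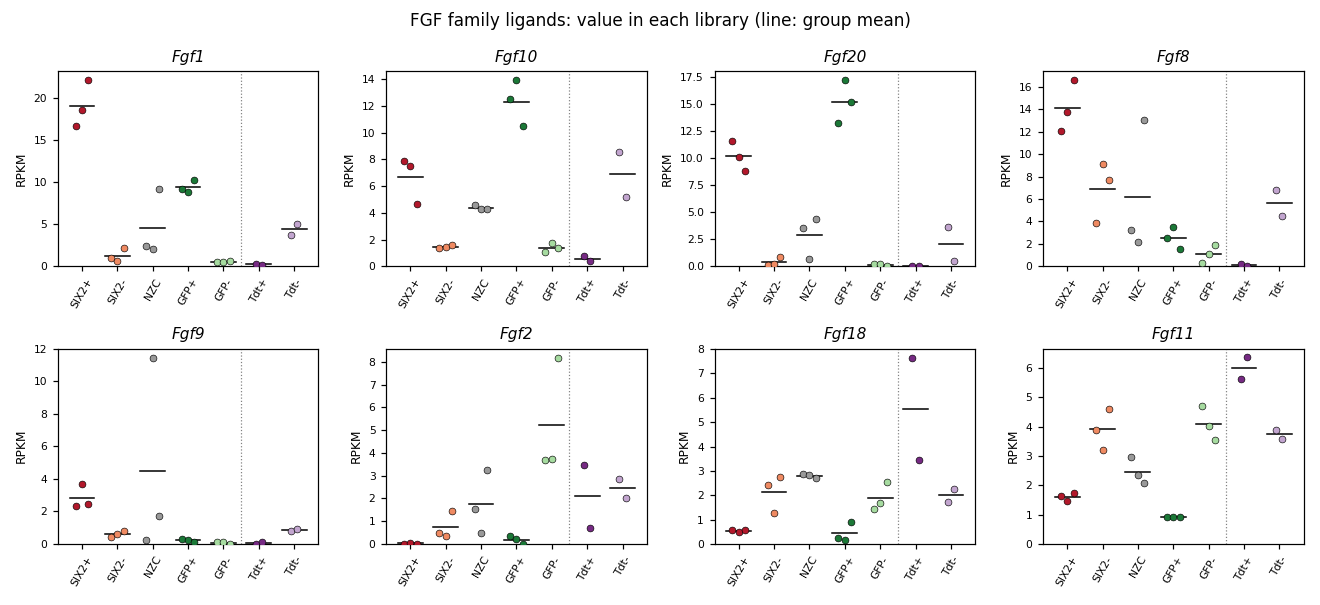
RPKM of 7 secreted FGF ligands and of Fgf11, an intracellular FGF homologous factor, in each library (points) of the 7 groups, with group means as lines; the dotted line separates the E16.5 from the E14.5 table, which were normalised separately. Fgf20 and Fgf1 sit high in SIX2+ and GFP+ libraries. Fgf8 and Fgf9 are higher in SIX2+ than in GFP+ libraries, Fgf9 without a call, and Fgf8 is also higher in SIX2- than in GFP+ libraries. Fgf9 has a single high unsorted library.

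At E14.5 the secreted ligands Fgf8, Fgf10 and Fgf1 were called lower in Foxd1-lineage cells, and each passed the filter on low values through the Tdt- libraries alone. Fgf8 was 0.240 and 0 in Tdt+ and 6.77 and 4.499 in Tdt- libraries (-2.55 ± 0.27, adjusted p = 0.002). Fgf10 was 0.738 and 0.363 in Tdt+ and 8.58 and 5.22 in Tdt- libraries (-2.33 ± 0.30, adjusted p = 0.00368). Fgf1 was 0.270 and 0.182 in Tdt+ and 3.72 and 5.05 in Tdt- libraries (-2.13 ± 0.25, adjusted p = 0.00264). Tdt+ cells thus held each of these ligands under 1 RPKM, and Fgf20 was listed at 0 in both Tdt+ libraries and at 3.63 and 0.487 in Tdt- libraries, too low for a test. Fgf18 went the other way in value, with 7.65 and 3.44 in Tdt+ and 1.73 and 2.27 in Tdt- libraries, without a call (1.05 ± 0.35, adjusted p = 0.115). It was called after quantile normalisation (0.0365) and with the replicate number as a block (0.00554), although that number is not taken to pair Tdt libraries. Without Tdt+ library 2 the Fgf18 difference was 1.53. The calls of Fgf1, Fgf8 and Fgf10 ended with no filter on low values (adjusted p = 0.0939, 0.107 and 0.15), a setting in which none of the 34 genes and 0.434% of all genes were called.

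The intracellular FGF homologous factors, which bind sodium channels and do not act through FGF receptors, had Fgf11 called lower in both progenitor groups and Fgf13 in GFP+ cells. Fgf11 measured 1.62, 1.45 and 1.75 in SIX2+ against 3.90, 3.21 and 4.60 in SIX2- libraries (-0.90 ± 0.16, adjusted p = 0.00065) and 0.924, 0.910 and 0.924 in GFP+ against 4.70, 4.03 and 3.54 in GFP- libraries (-1.40 ± 0.16, adjusted p = 9.96e-06). Neither pair overlapped. Tdt+ libraries had 5.64 and 6.39 and Tdt- libraries 3.90 and 3.58, which was not called (0.56 ± 0.24, adjusted p = 0.22). Fgf13 was called lower in GFP+ cells (-1.13 ± 0.31, adjusted p = 0.0115), with group means of 0.496 and 2.33, a call that ended without GFP- library 1 (0.0552) and in replicates 1 and 2 alone (0.0655). Fgf13 passed the filter on low values through depleted and unsorted libraries alone, so this call is not independent support. Between SIX2+ and SIX2- cells its difference was -0.78 ± 0.31, adjusted p = 0.0821, and 0.0498 with the replicate number as a block. Fgf12 was at most 0.216 RPKM in all 19 libraries.

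Fgfr1 was the most abundant receptor in all 19 libraries, well above Fgfr2 and Fgfrl1 on the per-length scale. It measured 121, 139 and 162 in SIX2+ and 58.3, 76.9 and 91.8 in SIX2- libraries (0.90 ± 0.23, adjusted p = 0.0107) and 143, 122 and 166 in GFP+ against 70.2, 66.0 and 74.3 in GFP- libraries (1.01 ± 0.23, adjusted p = 0.004). Every progenitor library was above every depleted library, and the call in the antibody sort ended without SIX2- library 1 (0.0633). Fgfrl1, a receptor-like protein without a kinase domain that is required for nephron formation, measured 33.6, 32.8 and 39.2 in GFP+ against 16.4, 16.4 and 18.8 in GFP- libraries (0.99 ± 0.30, adjusted p = 0.0198). The antibody-sorted values were 34.4, 36.2 and 40.2 in SIX2+ and 18.6, 23.0 and 28.1 in SIX2- libraries, without overlap but also without a call (0.66 ± 0.30, adjusted p = 0.134). NZC library 2 also entered this spread, at 8.49 against 20.6 and 28.8 in the other NZC libraries, and without it the adjusted p was 0.00458. The Fgfrl1 call in the reporter sort ended without GFP+ library 3 (0.0678), without GFP- library 1 or 2 (0.0596 or 0.0588), with libraries rescaled to the same sum (0.0562) and in replicates 1 and 2 alone (0.0601).

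Fgfr2 differed less. Its values were 24.1, 28.5 and 23.8 in SIX2+ and 19.6, 18.5 and 14.8 in SIX2- libraries, a difference of 0.51 ± 0.18 that missed the threshold (adjusted p = 0.0529, and 0.0308 with the replicate number as a block). In the reporter sort they were 27.8, 20.9 and 28.9 in GFP+ against 22.5, 16.8 and 13.4 in GFP- libraries (0.55 ± 0.18, adjusted p = 0.0295), which overlapped. That call ended without GFP+ library 1 or 3 (0.0944 or 0.106), without GFP- library 2 or 3 (0.0807 or 0.131), with libraries rescaled to the same sum (0.123), with the fit limited to the compared groups (0.0553) and in replicates 1 and 2 alone (0.292).

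Fgfr3 and Fgfr4 ran opposite to Fgfr1. Fgfr4 measured 1.48, 1.63 and 1.66 in SIX2+ and 7.23, 9.13 and 4.58 in SIX2- libraries (-1.58 ± 0.19, adjusted p = 2.37e-05) and 0.799, 0.847 and 1.07 in GFP+ against 2.79, 3.41 and 2.98 in GFP- libraries (-1.09 ± 0.19, adjusted p = 0.000462). Fgfr3 measured 1.70, 3.17 and 1.25 in SIX2+ and 7.76, 8.15 and 4.44 in SIX2- libraries (-1.37 ± 0.26, adjusted p = 0.00118) and 1.91, 1.99 and 2.18 in GFP+ against 6.66, 6.11 and 5.06 in GFP- libraries (-1.19 ± 0.26, adjusted p = 0.00264). Neither gene overlapped between progenitor and depleted libraries, and both kept their calls under every alternative that tested them. In bulk samples, fewer cells of a type and less RNA per cell cannot be told apart. Markers of podocytes and tubules moved with these receptors, with 7 of 7 tested called lower in each sort. Their summed level was 1.81 to 2.03 in SIX2+ against 25.1 to 82.8 in SIX2- and 1.74 to 2.26 in GFP+ against 25.9 to 76.7 in GFP- libraries. All tested stromal, ureteric, endothelial and leukocyte markers were also called lower in both sorts. The part of these cell types was not tested.

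In the Foxd1 lineage at E14.5, Fgfr2 and Fgfr4 were called lower and Fgfr1 was not called. Fgfr2 was 14.1 and 7.26 in Tdt+ and 24.0 and 37.3 in Tdt- libraries (-1.47 ± 0.34, adjusted p = 0.0375). Fgfr4 was 0.268 and 0 in Tdt+ and 4.07 and 4.03 in Tdt- libraries (-2.16 ± 0.24, adjusted p = 0.00231). Both genes were lower in each Tdt+ library than in each Tdt- library. Fgfr4 passed the filter on low values through the Tdt- libraries alone, so it was bound to differ. Fgfr1 was 116 and 77.2 in Tdt+ and 113 and 106 in Tdt- libraries (-0.21 ± 0.28, 95% interval -0.86 to 0.43), Fgfrl1 30.8 and 22.2 in Tdt+ against 31.8 and 23.1 in Tdt-, and both overlapped. Fgfr3 was 3.48 and 1.94 in Tdt+ and 6.35 and 6.94 in Tdt- libraries without a call (-1.07 ± 0.29, adjusted p = 0.061), and was called without Tdt+ library 1 (0.00759). The Fgfr2 call ended without Tdt- library 1 or 2 (0.12 or 0.418), with a pseudocount of 0.1 (0.0501) and with no filter on low values (0.312), and the Fgfr4 call with no filter on low values (0.0791).

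**Figure D3:**
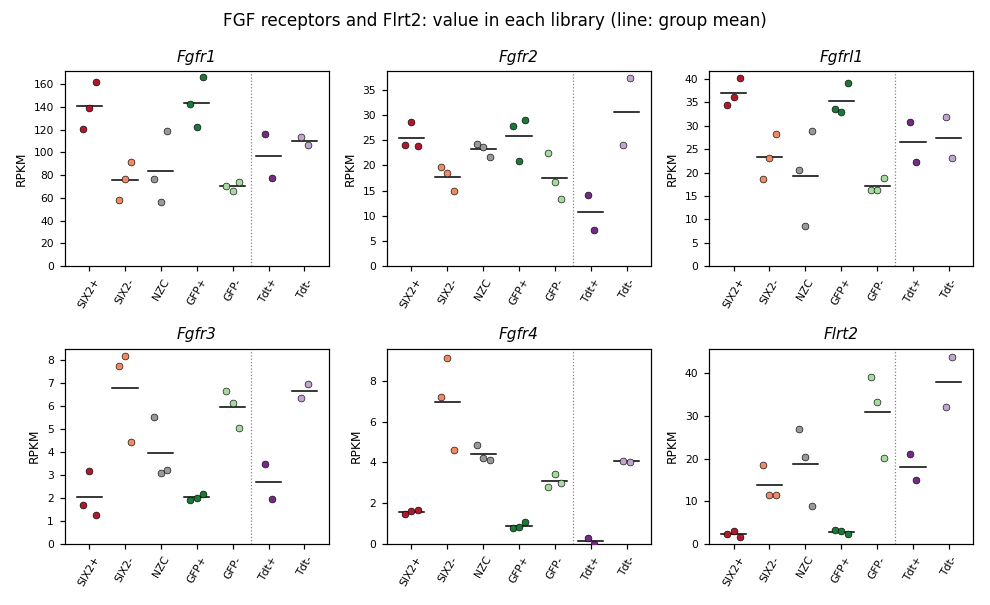
RPKM of the 5 FGF receptor genes and of the cofactor gene Flrt2 in each library (points) of the 7 groups, with group means as lines and a dotted line between the separately normalised E16.5 and E14.5 tables. Fgfr1 and Fgfrl1 are higher in SIX2+ and GFP+ than in SIX2- and GFP- libraries, while Fgfr3, Fgfr4 and Flrt2 are lower.

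The ETS factors, through which ERK activity reaches transcription, had 2 of 3 genes called higher in each progenitor sort, Etv4 in both. Etv4 measured 81.7, 75.6 and 107 in SIX2+ and 17.8, 28.4 and 49.1 in SIX2- libraries (1.54 ± 0.48, adjusted p = 0.0303). Its reporter values were 63.7, 70.7 and 74.2 in GFP+ against 6.93, 8.43 and 20.1 in GFP- libraries (2.60 ± 0.48, adjusted p = 0.000839). Neither pair overlapped. The antibody-sort call of Etv4 ended without SIX2+ library 1, 2 or 3 (0.0656, 0.0581 or 0.101), without SIX2- library 1 or 2 (0.147 or 0.0804) and with no filter on low values (0.0716). Etv5, its close relative, measured 47.3, 38.4 and 42.4 in GFP+ against 16.9, 17.6 and 24.3 in GFP- libraries (1.10 ± 0.24, adjusted p = 0.00281). In the antibody sort it was 35.6, 35.7 and 42.4 in SIX2+ and 17.97, 23.1 and 31.4 in SIX2- libraries (0.66 ± 0.24, adjusted p = 0.0614, and 0.0111 with the replicate number as a block), and it was called without SIX2- library 3 (0.0248) or NZC library 2 (0.0472).

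Etv1, the least abundant of the 3 ETS genes at E16.5, was called higher in SIX2+ than in SIX2- cells, at means of 4.48 and 1.68 (1.03 ± 0.29, adjusted p = 0.0173). The GFP+ mean was 3.27 and the GFP- mean 2.34 (0.35 ± 0.29, adjusted p = 0.387), and the difference between the sorts was not called (adjusted p = 1). The antibody-sort call ended without SIX2+ library 2 (0.0635), without SIX2- library 1 (0.0529) and in replicates 1 and 2 alone (0.0681). At E14.5, Etv1 was called lower in Tdt+ cells (means 0.829 and 4.07, -1.47 ± 0.25, adjusted p = 0.012), a call that ended without Tdt- library 2 (0.108), with no filter on low values (0.171) and after quantile normalisation (0.0572). Etv1 passed the filter on low values through the Tdt- libraries alone, so it was bound to differ there. Etv4 (26.3 and 30.8 in Tdt+, 41.8 and 27.2 in Tdt-) and Etv5 (22.4 and 23.0 in Tdt+, 26.8 and 26.1 in Tdt-) were not called between Tdt+ and Tdt- cells, with 95% intervals of -0.84 to 0.37 and -0.69 to 0.28.

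The feedback inhibitors did not move as a block. Sprouty genes were lower in the progenitors or not called, whereas Spred3, Dusp4, Dusp5 and Il17rd were higher. Spry4 measured 6.73, 8.97 and 8.54 in SIX2+ and 11.9, 13.2 and 12.6 in SIX2- libraries (-0.59 ± 0.17, adjusted p = 0.0196) and 4.55, 8.18 and 6.61 in GFP+ against 13.5, 13.4 and 12.4 in GFP- libraries (-0.95 ± 0.17, adjusted p = 0.000603). Spry2 measured 17.4, 23.1 and 16.7 in SIX2+ and 26.9, 26.0 and 29.0 in SIX2- libraries (-0.51 ± 0.16, adjusted p = 0.0314) and 16.2, 17.4 and 18.2 in GFP+ against 27.3, 32.7 and 33.4 in GFP- libraries (-0.81 ± 0.16, adjusted p = 0.00134). In each sort, every progenitor library was below every depleted library for both genes. Spry1, the most abundant Sprouty gene at E16.5 and known for restraining Ret signalling in the ureteric bud, was not called in either sort (-0.39 ± 0.20, adjusted p = 0.204, and -0.20 ± 0.20, adjusted p = 0.479), with 95% intervals of -0.83 to 0.05 and -0.64 to 0.23. In the antibody sort the Spry4 call ended without SIX2+ library 1 (0.0965), without SIX2- library 2 (0.0726) and in replicates 1 and 2 alone (0.124), and the Spry2 call without SIX2+ library 1 or 3 (0.112 or 0.12), without SIX2- library 1, 2 or 3 (0.0784, 0.0628 or 0.0946), with libraries rescaled to the same sum (0.0856) and in replicates 1 and 2 alone (0.289).

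Spred3, the least abundant of the 3 Spred genes in all 19 libraries, rose in both progenitor groups. Its values were 5.46, 5.84 and 7.59 in SIX2+ and 2.33, 2.89 and 4.25 in SIX2- libraries (0.83 ± 0.23, adjusted p = 0.0177), and 6.18, 5.54 and 8.19 in GFP+ against 1.54, 1.76 and 3.25 in GFP- libraries (1.29 ± 0.23, adjusted p = 0.000697). The groups did not overlap in either sort, and the first call ended without SIX2+ library 3 (0.0793) and without SIX2- library 1 or 2 (0.093 or 0.0619). Spred1 was called lower in GFP+ cells, at 18.3, 11.8 and 12.1 against 27.0, 26.3 and 17.7 in GFP- libraries (-0.72 ± 0.22, adjusted p = 0.0237), although 1 GFP+ library lay above the lowest GFP- library. This call ended without GFP+ library 2 or 3 (0.0901 or 0.0857) and without GFP- library 1 or 2 (0.0967 or 0.0898). Spred1 in antibody-sorted cells was 14.9, 16.2 and 10.2 in SIX2+ and 19.5, 16.3 and 14.6 in SIX2- libraries (-0.29 ± 0.22, adjusted p = 0.416). Spred2 was called in no comparison and ranged from 7.34 to 27.9 over the 19 libraries.

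Among the phosphatases, Dusp4 and Dusp5, which act on ERK in the nucleus, rose in the progenitors and Dusp6, the cytoplasmic ERK phosphatase and a widely used readout of FGF signalling, was not called. Dusp4 measured 12.1, 13.1 and 15.8 in SIX2+ and 4.29, 5.72 and 6.51 in SIX2- libraries (1.18 ± 0.20, adjusted p = 0.000415) and 27.7, 24.8 and 25.0 in GFP+ against 5.46, 6.51 and 6.56 in GFP- libraries (1.91 ± 0.20, adjusted p = 3.88e-06). Dusp5 measured 30.2, 32.3 and 36.2 in SIX2+ and 14.48, 13.4 and 24.7 in SIX2- libraries (0.92 ± 0.29, adjusted p = 0.0338) and 40.1, 40.9 and 50.02 in GFP+ against 13.5, 11.6 and 27.1 in GFP- libraries (1.37 ± 0.29, adjusted p = 0.00246). No progenitor library overlapped the depleted ones for either gene. The antibody-sort call of Dusp5 ended without SIX2+ library 1, 2 or 3 (0.0627, 0.0803 or 0.102), without SIX2- library 1 or 2 (0.126 or 0.138), with no filter on low values (0.0699) and after quantile normalisation (0.0619). Dusp6 ranged from 41.1 to 51.4 in SIX2+ and from 33.0 to 51.9 in SIX2- libraries, with differences of 0.04 ± 0.24 (95% interval -0.47 to 0.55) and, in the reporter sort, -0.09 ± 0.24 (-0.60 to 0.42).

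Il17rd, the membrane-bound inhibitor of FGF receptor signalling, was called higher in both progenitor sorts. It measured 12.4, 15.5 and 15.2 in SIX2+ and 4.12, 8.11 and 7.63 in SIX2- libraries (1.05 ± 0.24, adjusted p = 0.00464). Its values were 24.2, 15.1 and 22.6 in GFP+ against 2.68, 3.52 and 2.57 in GFP- libraries (2.44 ± 0.24, adjusted p = 2.47e-06). The progenitor and depleted libraries did not overlap in either sort, and no alternative run ended these calls. At E14.5 Il17rd was called lower, at 1.21 and 0.419 in Tdt+ against 12.4 and 15.3 in Tdt- libraries (-3.07 ± 0.30, adjusted p = 0.00141).

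In Foxd1-lineage cells Spry4 was called higher and Dusp4 and Il17rd lower. Spry4 was the 1 member called higher, at 13.7 and 12.3 in Tdt+ and 5.41 and 6.18 in Tdt- libraries (1.04 ± 0.24, adjusted p = 0.0353). Spry2 was 52.9 and 25.2 in Tdt+ and 22.6 and 17.1 in Tdt- libraries (0.86 ± 0.35, adjusted p = 0.189), and Spry1 46.7 and 43.5 in Tdt+ against 21.4 and 28.7 in Tdt- libraries (0.84 ± 0.23, adjusted p = 0.0709), both without overlap and without a call. Spry1 was called without Tdt+ library 1 (0.0373) or 2 (0.0481), and Spry2 without Tdt+ library 2 (0.00757). Dusp4 was called lower, at 5.21 and 3.13 in Tdt+ and 11.9 and 12.2 in Tdt- libraries (-1.37 ± 0.28, adjusted p = 0.0232). Dusp5 was 1.37 and 7.70 in Tdt+ and 6.03 and 17.4 in Tdt- libraries, which overlapped (-1.32 ± 0.63, adjusted p = 0.266, and 0.0201 without Tdt+ library 2), and Dusp6 was called only without Tdt+ library 2 (0.0437). Spred3 (3.67 and 2.69 in Tdt+, 5.30 and 3.90 in Tdt-) and Spred1 (24.0 and 22.1 in Tdt+, 19.9 and 26.6 in Tdt-) were not called. The Spry4 call ended without Tdt- library 1 or 2 (0.414 or 0.324), with no filter on low values (0.102) and with libraries rescaled to the same sum (0.171), the Dusp4 call without Tdt- library 1 or 2 (0.24 or 0.278) and with no filter on low values (0.191), and the Il17rd call with no filter on low values (0.0981).

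**Figure D4:**
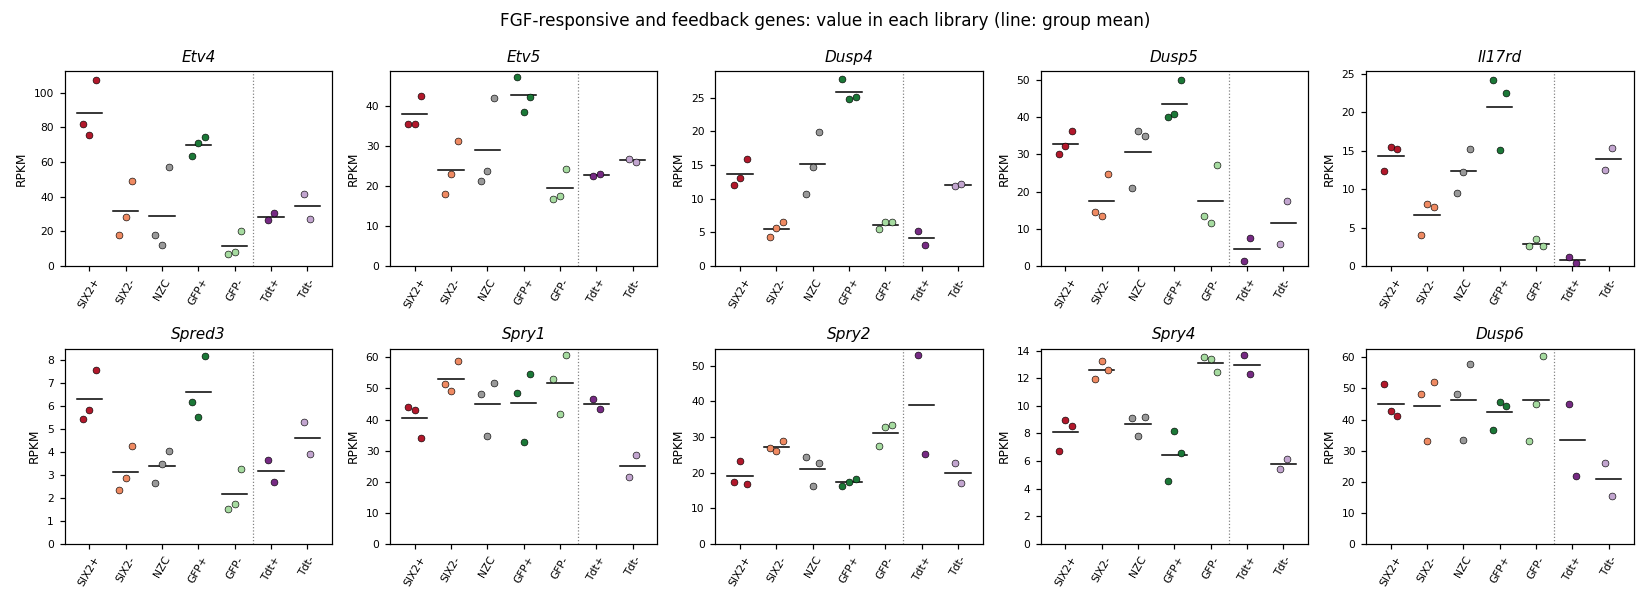
RPKM of FGF feedback genes and ETS factors in each library (points) of the 7 groups, with group means as lines and a dotted line between the separately normalised E16.5 and E14.5 tables. Etv4, Spred3, Dusp4, Dusp5 and Il17rd are higher in both progenitor groups than in the depleted cells of the same sort, whereas Spry2 and Spry4 are lower.

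Promoter windows, the 250 bases before each gene start in RefSeq (GRCm38.p6), were read for 27 of the 34 members, 36 windows in all. No window was read for Fgf1, Fgf8, Fgf20, Fgfr1, Spry4, Etv4 or Dusp4. Windows are shown, over the stretch free of annotated exons, for 6 genes whose values differed between sorted groups: Il17rd and Spred3, called higher in both progenitor groups, Etv5 and Fgfrl1, called higher in GFP+ cells, and Spry2 and Flrt2, called lower in both progenitor groups. Each is written 5′ to 3′ on the strand of its gene, and capitals mark CCGGAA, the core of many ETS factor sites. Etv5 has windows for 2 starts, and both are shown. The windows of Spred3 and Fgfrl1 and the first of Etv5 lie within the annotated gene, upstream of a RefSeq start inside it, and those of Il17rd, Spry2 and Flrt2 and the other of Etv5 outside.
Il17rd (chr14:27038751-27038940, plus strand): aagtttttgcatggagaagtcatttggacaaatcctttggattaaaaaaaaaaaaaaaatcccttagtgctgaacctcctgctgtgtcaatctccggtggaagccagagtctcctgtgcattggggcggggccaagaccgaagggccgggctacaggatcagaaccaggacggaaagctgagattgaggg
Spred3 (chr7:29168648-29168897, minus strand): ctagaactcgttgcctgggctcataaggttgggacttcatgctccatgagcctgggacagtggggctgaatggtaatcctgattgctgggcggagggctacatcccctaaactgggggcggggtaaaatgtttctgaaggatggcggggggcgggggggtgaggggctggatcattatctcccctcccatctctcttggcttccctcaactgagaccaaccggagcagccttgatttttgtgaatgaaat
Etv5 (chr16:22438369-22438618, minus strand): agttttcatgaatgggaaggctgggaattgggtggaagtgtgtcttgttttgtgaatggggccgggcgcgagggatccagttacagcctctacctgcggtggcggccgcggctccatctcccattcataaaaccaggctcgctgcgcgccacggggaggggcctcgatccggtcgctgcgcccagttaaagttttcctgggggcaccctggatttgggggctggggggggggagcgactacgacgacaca
Etv5, other start (chr16:22439720-22439820, minus strand): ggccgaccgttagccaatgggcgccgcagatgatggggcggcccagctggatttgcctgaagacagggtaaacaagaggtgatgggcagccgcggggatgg
Fgfrl1 (chr5:108693979-108694228, plus strand): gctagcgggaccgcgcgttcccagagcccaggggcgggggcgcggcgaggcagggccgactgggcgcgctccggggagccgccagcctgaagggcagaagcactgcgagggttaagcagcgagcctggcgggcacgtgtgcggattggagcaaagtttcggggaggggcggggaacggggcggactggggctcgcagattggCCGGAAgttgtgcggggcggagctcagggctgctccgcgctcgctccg
Spry2 (chr14:105896820-105897069, minus strand): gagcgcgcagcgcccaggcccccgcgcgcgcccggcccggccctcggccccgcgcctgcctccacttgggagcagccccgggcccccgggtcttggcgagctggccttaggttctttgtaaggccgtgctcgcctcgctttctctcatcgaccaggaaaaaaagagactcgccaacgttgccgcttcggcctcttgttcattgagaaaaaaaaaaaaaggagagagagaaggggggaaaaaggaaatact
Flrt2 (chr12:95691976-95692225, plus strand): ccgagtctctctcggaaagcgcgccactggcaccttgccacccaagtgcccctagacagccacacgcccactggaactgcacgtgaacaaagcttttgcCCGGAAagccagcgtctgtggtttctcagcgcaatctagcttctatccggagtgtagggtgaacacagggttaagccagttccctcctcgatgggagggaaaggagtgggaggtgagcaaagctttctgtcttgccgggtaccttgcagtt

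The CCGGAA core stood in the Fgfrl1 window 48 bases and in the Flrt2 window 151 bases before the start. On both strands together it was found in 5 of the 36 member windows (Fgf12, Fgfr4, Fgfrl1, Flrt2 and Frs2), beside 12.0% of all 32851 windows of that length. TGACGTCA, the cyclic AMP response element, was in none of the member windows and 1.55% of all windows, and TGANTCA, the AP-1 site, in 2 member windows (Fgf12 and Fgf13) and 6.75% of all. Member windows had a median GC content of 62.2%, beside 52.4% over all windows. A match describes letters in a window and is not a site of binding, and a missing match says only that the letters are not in that window.

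Among adaptors and cofactors, Flrt2 and Flrt3 ran in opposite directions. Both encode membrane proteins that can bind FGF receptors. Flrt2 was called lower in both progenitor groups, at 2.24, 3.01 and 1.70 in SIX2+ and 18.5, 11.5 and 11.4 in SIX2- libraries (-2.14 ± 0.34, adjusted p = 0.000285) and 3.30, 3.10 and 2.30 in GFP+ against 39.0, 33.2 and 20.2 in GFP- libraries (-2.99 ± 0.34, adjusted p = 1e-05). Flrt3 was called higher in GFP+ cells, at 11.8, 10.1 and 12.5 against 5.10, 4.18 and 2.42 in GFP- libraries (1.38 ± 0.31, adjusted p = 0.00317). In the antibody sort it was 5.28, 6.99 and 3.90 in SIX2+ and 3.91, 3.74 and 2.10 in SIX2- libraries, the lowest of the first just under the highest of the second (0.59 ± 0.31, adjusted p = 0.201). Stromal markers fell with Flrt2 in both sorts, 12 of 12 called lower each time. So did all tested podocyte and tubule, ureteric, endothelial and leukocyte markers. The part of these cell types was not tested.

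Summed stromal markers overlapped between Tdt+ and Tdt- libraries. Foxd1-lineage cells had 21.0 and 14.99 RPKM of Flrt2 against 32.0 and 43.7 in Tdt- libraries (-1.03 ± 0.26, adjusted p = 0.0522), without overlap and without a call. Without Tdt+ library 1 Flrt2 was called (0.00729). Flrt3 was called lower in Tdt+ cells, at 4.79 and 3.11 against 9.64 and 10.2 (-1.16 ± 0.27, adjusted p = 0.037), a call that ended without Tdt+ library 2 (0.0515), without Tdt- library 1 or 2 (0.32 or 0.391), with no filter on low values (0.2), with libraries rescaled to the same sum (0.0511) and after quantile normalisation (0.0635). Frs2, the adaptor that links the receptors to RAS, and its relative Frs3 were called in no comparison, with differences between -0.35 and 0.20 in the 3 sorts. Fgfbp1, which releases FGFs from the matrix, was near 0 in both progenitor groups and had means of 1.16 in SIX2- and 1.25 in GFP- cells (-1.07 ± 0.31, adjusted p = 0.0187, and -1.09 ± 0.31, adjusted p = 0.014). Fgfbp1 passed the filter on low values through depleted and unsorted libraries alone, so these calls are not independent support. Its antibody-sort call ended without SIX2+ library 1, 2 or 3 (0.0512, 0.052 or 0.0545), without SIX2- library 1 or 3 (0.0548 or 0.0654), after quantile normalisation (0.151) and in replicates 1 and 2 alone (0.0758), and its reporter-sort call without GFP- library 3 (0.0677) and in replicates 1 and 2 alone (0.114).

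Nephron progenitors of the antibody and reporter sorts were also compared with each other. Sort method, the source (nephrogenic zone cells or Six2TGC/+ kidneys), the Six2TGC allele and any difference in RNA isolation change together between these groups and cannot be told apart. Of 32 members tested, 1 was called higher in SIX2+ than in GFP+ cells and 2 lower, beside 3.06% of all genes tested (0.774% higher, 2.29% lower). Groups of 12 members did not overlap, beside 26.9% of all genes. Fgf8 was higher, with the values above lying from 12.1 to 16.6 in SIX2+ and from 1.53 to 3.46 in GFP+ libraries (2.15 ± 0.47, adjusted p = 0.0226). SIX2- libraries, at 3.87 to 9.10, also lay above every GFP+ library for Fgf8. Its progenitor difference was not called as differing between the sorts (0.22 ± 0.67). Fgf10 (-0.82 ± 0.18, adjusted p = 0.0257) and Dusp4 (-0.88 ± 0.20, adjusted p = 0.0243) were lower in SIX2+ than in GFP+ cells, each without overlap. Fgf9 and Flrt3 did not overlap either and were not called (1.63 ± 0.55, adjusted p = 0.146, and -0.99 ± 0.31, adjusted p = 0.113). Without NZC library 2, Fgf9 had an adjusted p of 0.00139. The Fgf8 call ended without SIX2+ library 1, 2 or 3 (0.0648, 0.0788 or 0.0944), without GFP+ library 1 or 3 (0.0974 or 0.109), with a pseudocount of 0.1 (0.0544), with no filter on low values (0.0668) and after quantile normalisation (0.0515), the Fgf10 call without SIX2+ library 3 (0.113), without GFP+ library 1 or 2 (0.124 or 0.0743), with a pseudocount of 0.1 (0.0511), after quantile normalisation (0.0539) and with the fit limited to the compared groups (0.0518), and the Dusp4 call without SIX2+ library 1 or 2 (0.119 or 0.0937) and without GFP+ library 1 or 3 (0.128 or 0.0764). Fgf1, Fgf9, Fgf11, Fgfr4 and Flrt3 were also called when the fit was limited to the compared groups.

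No receptor was called between the sorts' progenitors, where Fgfr1 differed by -0.03 ± 0.23 (95% interval -0.53 to 0.47), Fgfr2 by -0.01 ± 0.18 (-0.40 to 0.37), Fgfrl1 by 0.07 ± 0.30 (-0.57 to 0.71). Whether the progenitor difference itself changed with the sort was tested as SIX2+ minus SIX2- against GFP+ minus GFP-. No member was called with limma's test, 5 had an unadjusted p under 0.05, and 0.141% of all genes were called. Il17rd came nearest, with a smaller rise in the antibody sort (difference -1.39 ± 0.34, adjusted p = 0.147), followed by Fgf10 (difference -0.89 ± 0.26, adjusted p = 0.288) and Fgf2 (1.59 ± 0.50, adjusted p = 0.365). A member called in 1 sort and not in the other, such as Fgf2, Etv5 or Fgfrl1, is therefore not shown to differ between them. Summed early nephron markers were 108 to 156 in SIX2+, 298 to 481 in SIX2-, 163 to 188 in GFP+ and 149.7 to 185 in GFP- libraries, so the depleted cells of the sorts also differed, and the part of this in the values of Fgf8 and Il17rd was not tested.

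**Figure D5:**
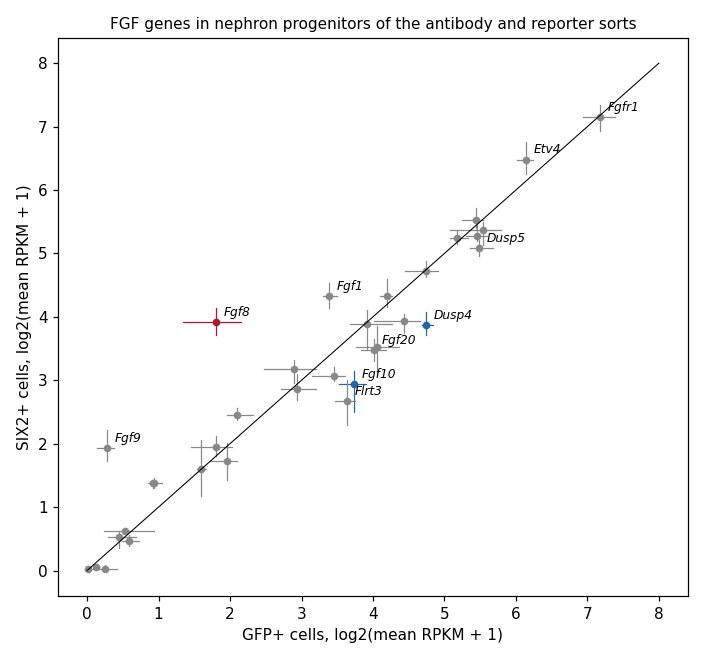
Level, as log2(mean RPKM + 1), of each FGF pathway gene in GFP+ (horizontal) and SIX2+ cells (vertical), each point 1 gene with bars from the lowest to the highest of 3 libraries and the line marking equal levels. Fgf8 (called higher in SIX2+ cells) lies above the line, and Fgf10 and Dusp4 (called lower) below it.

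Unsorted nephrogenic zone cells are the source of both antibody-sorted fractions. Of the 32 members tested, 18 had an unsorted mean between the SIX2+ and SIX2- means, 10 lay above both and 4 below both, beside 30.7%, 29.0% and 40.3% of all genes tested. Without NZC library 2 the counts were 20, 11 and 1, beside 34.8%, 30.3% and 34.9%. Members above both means in each case were Fgf2, Fgf18, Spred1, Spred2, Dusp4, Dusp6, Frs2, Flrt2 and Flrt3. Frs2 was the 1 member whose 3 unsorted libraries (9.996, 12.8 and 8.92) all exceeded the 6 sorted ones (6.66 to 8.24), beside 6.49% of all genes tested, and without NZC library 2 it was 1 of 3 such members, beside 10.2%. Levels of the ligands in unsorted cells were 4.55, 4.30 and 4.25 for Fgf10, 3.54, 0.654 and 4.39 for Fgf20, 2.44, 2.06 and 9.23 for Fgf1 and 3.21, 2.20 and 13.0 for Fgf8. The 3 unsorted libraries spread widely for Fgf20, Fgf1 and Fgf8 and little for Fgf10.

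Other genes of the pathway were taken from fixed lists. Of 11 further FGF ligands, 1 was abundant enough to test at E16.5 and none at E14.5, none was called, and their summed level stayed at or under 3.43 in all 19 libraries. Of 27 genes of the RAS and MAP kinase relay, 3 were called higher and 4 lower in each progenitor sort, with a median difference of 0.08 and 0.10, beside 24.2% of all genes called in SIX2+ and 32.9% in GFP+ cells, so these calls were no more frequent than over all genes in GFP+ cells and near that share in SIX2+ cells. In SIX2+ and GFP+ cells the named genes were Pik3r1, a regulatory subunit of PI3 kinase (-1.92 ± 0.21 and -1.40 ± 0.21), Rps6ka3, an ERK-activated kinase (0.88 ± 0.20 and 1.14 ± 0.20), and the scaffold Ksr1 (-0.77 ± 0.18 and -1.34 ± 0.18). In Tdt+ cells 2 of 27 were called, beside 8.44% of all genes, both lower: Rps6ka3 (-1.71 ± 0.23) and the ubiquitin ligase Cbl (-1.67 ± 0.24).

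Heparan sulphate genes, whose products hold FGFs at the receptor, were called in both directions in the progenitors. Of 21 tested, 4 were called higher and 2 lower in SIX2+ cells, near the 24.2% of all genes called, and 6 higher and 5 lower in GFP+ cells, beside 32.9%. The glypican genes Gpc4 and Gpc3 were among the decreases, Gpc4 by -2.38 ± 0.26 in SIX2+ and -1.68 ± 0.26 in GFP+ cells and Gpc3 by -1.16 ± 0.19 and -1.84 ± 0.19. Sulf2, a sulphatase that trims heparan sulphate, rose by 1.60 ± 0.29 in SIX2+ cells, and the syndecan Sdc2 changed by -1.62 ± 0.43 in GFP+ cells. In Tdt+ cells 4 of 20 were called, beside 8.44% of all genes, all lower, among them Sulf1 (-2.74 ± 0.30), Sdc4 (-1.48 ± 0.24) and Gpc1 (-1.33 ± 0.26).

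Other ERK-responsive genes were called in both directions, beside the rise of Etv4, Dusp4 and Il17rd. Of 18 tested, 4 were called higher and 4 lower in SIX2+ cells (median -0.12) and 5 higher and 4 lower in GFP+ cells (median -0.08), beside 24.2% and 32.9% of all genes called. Myc rose by 1.195 ± 0.26 and 1.41 ± 0.26, while Ier3 changed by -1.18 ± 0.31 and -1.40 ± 0.31. Ccnd1, which is also a marker of early nephrons, changed by -1.24 ± 0.20 in SIX2+ cells, and the ephrin receptor Epha2 rose by 1.54 ± 0.18 in GFP+ cells. In Tdt+ cells 3 of 18 were called, all lower: Dusp2 (-1.97 ± 0.36), Epha2 (-1.74 ± 0.40) and Myc (-1.27 ± 0.21). Of 6 other FGF cofactors tested, 2 were called higher in SIX2+ cells, the cadherin Cdh2 (1.44 ± 0.17) and Lrig3 (0.69 ± 0.20), and 3 in GFP+ cells, Flrt1 (1.77 ± 0.28) beside Cdh2 (1.68 ± 0.17) and Lrig3 (1.03 ± 0.20), with none lower. The adhesion gene Ncam1 was the 1 of 5 called in Tdt+ cells (-1.70 ± 0.23, lower).

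Cell type markers differed between the positive and negative cells of each sort. Between SIX2+ and GFP+ cells, 1 stromal marker was called higher, 1 stromal and 1 ureteric marker lower, and no marker of the other lists was called. In SIX2+ cells the nephron progenitor list had 10 of 10 called higher, and the ureteric (5 of 5 tested), endothelial (8 of 8) and leukocyte lists (8 of 8) were called lower throughout. In GFP+ cells 9 of 10 progenitor markers were called higher and the same 3 lists lower throughout. In Tdt+ cells 9 of 10 progenitor, 5 of 8 endothelial and 6 of 7 leukocyte markers were called lower, and among 12 stromal markers 2 were called higher and 2 lower. Of 10 early nephron markers, none was called higher and 8 lower in SIX2+ cells, 2 higher and 5 lower in GFP+ cells, and 1 higher and 8 lower in Tdt+ cells, where 5 of 6 podocyte and tubule and 1 of 4 ureteric markers were also called lower. Lhx1, Aqp2, Umod, Ptprc and Tyrobp were listed at 0 in both Tdt+ libraries. Summed endothelial markers were 2.42 to 5.82 in SIX2+, 1.75 to 7.40 in GFP+ and 22.1 to 29.9 in Tdt+ libraries, against 58.8 to 168, 47.5 to 90.6 and 85.0 to 113 in their counterparts. Red cell markers, summed, ran from 0.352 to 16.4 in the antibody-sorted libraries, from 11.4 to 8474 in the reporter-sorted ones and from 10.5 to 1558 in the E14.5 libraries. None of 8 was called in the antibody sort, 8 of 8 were called lower in GFP+ cells and 1 of 6 lower in Tdt+ cells. Progenitor markers summed to 17.1 to 22.5 in Tdt+ and 466 to 482 in Tdt- libraries, in step with the lower Fgf8, Fgf10 and Il17rd of Tdt+ cells, and the part of cell composition in those differences was not tested.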

How the data were processed

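Poly(A) RNA of 19 libraries was sequenced after stranded library preparation with a Kapa kit, per the labels' protocols, which name the RecoverAll and RNeasy Micro kits for isolation without tying either to a library. Per the submitters' processing notes, the names TopHat2, Partek and mm10 (a mouse build) apply, with no role or order. Their versions and the annotation were not given in the sources used here, nor was the use of strand in counting.

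The RPKM values were deposited by the authors as a table for each age. These deposited tables are titled TPM but behave as RPKM: column sums differed (338724 to 428995 at E16.5 and 341435 to 452553 at E14.5), whereas sums weighted by exonic length (GENCODE M21, GRCm38) were closer (949196 to 1021410 and 1069420 to 1108110). In both tables, 27 names each had been turned into dates and were left out. Depth was estimated from low RPKM values, which are multiples of 1 read where whole reads are counted. Only 44.8% to 55.2% of low values per library lay within 0.05 of a whole read, so depths are approximate and no count model was used.

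From these values, log2(RPKM + 1) was tested with limma 3.58.1 in R 4.3.3 (two-sided, eBayes with a trend, Benjamini-Hochberg over all genes tested). Fold changes on this scale understate changes of low genes. Genes of at least 1 RPKM in at least 3 (E16.5, 12798 genes) or 2 libraries (E14.5, 12364 genes) were tested, with 5 group means and 10 residual degrees of freedom at E16.5 and 2 group means and 2 at E14.5. Tests were made within a table. The scripts were tested on simulated data. Other steps used pandas 2.3.3 and numpy 2.4.6 in python 3.11.15, with matplotlib 3.10.9 for figures.

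The 34 members, the 5 lists of other pathway genes and the 8 marker lists were chosen with earlier results of these data known. Members are given in every library where they were called in a sort, or are ligands or receptors, with a group mean of at least 5. Others are given by ranges, and other genes only as the 3 called list members with the largest change, beside Six2 and Foxd1. The main fit did not use replicate numbers, so its p-values are unpaired, and the numbers entered as a block in an alternative. Deviations from the group means of same-numbered libraries correlated across genes for SIX2+ with SIX2- (r = 0.64, 0.28 and 0.68) and GFP+ with GFP- libraries (0.45, 0.44 and 0.39). SIX2+ and GFP+ libraries, which come from different kidneys, reached 0.40, -0.02 and 0.58, so these correlations cannot decide whether the numbers mark pairs.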

Additional observations from a re-analysis of the deposited data

How the results depend on the processing

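No member called in a comparison reversed its direction there under the alternatives run; members without a call were not followed for direction. Across alternatives, 263 of 301 gene calls were kept for SIX2+ against SIX2-, 381 of 402 for GFP+ against GFP-, 30 of 48 for SIX2+ against GFP+ and 91 of 116 for Tdt+ against Tdt-. Leaving out a replicate gave 11 to 17 calls for SIX2+ against SIX2- (beside 17.8% to 21.9% of all genes), 21 to 23 for GFP+ against GFP- (24.2% to 28.2%), 0 for the difference between the sorts (0.00781% to 0.195%), 0 to 2 for SIX2+ against GFP+ (0.969% to 3.59%) and 5 to 14 for Tdt+ against Tdt- (2.77% to 26.7%), where the library left alone is assumed to vary like the other group. SIX2+ against GFP+ gave 1 call with a pseudocount of 0.1, 1 after quantile normalisation and 7 with only the groups compared (beside 3.20%, 2.61% and 6.399% of all genes), and the difference between the sorts then gave 1 (Fgf9, adjusted p = 0.041, beside 1.07%). With only SIX2+ and SIX2- libraries fitted, Fgf2, Fgf8, Fgf9, Fgf13, Fgfr2, Fgfrl1 and Etv5 were also called between them, and without NZC library 2 Fgf9, Fgf13, Fgfr2, Fgfrl1 and Etv5, beside 32.9% and 32.9% of all genes. Tdt+ against Tdt- gave 0 with no filter (17 at an unadjusted p under 0.05, limma) and 6 with a minimum of 5, beside 0.434% and 5.59% of all genes. The cause was not tested. With the replicate number as a block, 21 members were called for SIX2+ against SIX2- (beside 29.0% of all genes), 24 for GFP+ against GFP- (39.2%), 0 for the difference between the sorts (0.211%), 4 for SIX2+ against GFP+ (5.65%) and 17 for Tdt+ against Tdt- (18.7%). In the last comparison same-numbered deviations correlated at 0.40, a single value, since 2 libraries deviate from their mean by equal and opposite amounts. The number is not taken to pair libraries there, nor for SIX2+ and GFP+ libraries (0.40, -0.02 and 0.58), and in the first 2 sorts pairing stayed undecided. The block left 1 residual degree of freedom in Tdt+ against Tdt-, where it also called Fgf13, Fgf18, Fgfr3, Spry1, Spry2, Dusp5 and Flrt2. Beyond Etv5, Fgfr2 and Fgf13 the block changed no other call in the first 2 sorts. Depth limits low genes most in NZC library 2 and the Tdt+ libraries.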
